A study of Xenopus laevis with 24 samples.

Results

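The genes described are 6 transcription factor genes of the paraxial mesoderm, the mesoderm that forms somites and skeletal muscle. They were chosen by name, with earlier results of these data known. The rule took every gene model whose name, without the final L or S, is *msgn1*, *myf5*, *myod1*, *myf6*, *mef2c* or *tcf15*. *Xenopus laevis*, the African clawed frog, has a duplicated genome in which many genes exist as homeologs, named L and S, and these copies were kept apart. The rule found 11 of the 31694 gene models in the count table, an L and an S model for each gene except *tcf15*, for which *tcf15.L* was found and *tcf15.S* was not analysed here. All 11 passed the filter on low counts, as did 31349 gene models in all. *myf6.L* passed it only through the 2 libraries of DMZ stage 18, so a difference between that stage and others is built into its entry and is described without weight.

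Muscle forms in steps. Presomitic cells express mesogenin 1 (*msgn1*), a basic helix-loop-helix factor of unsegmented paraxial mesoderm, and the related factors Myf5 and MyoD commit cells to the muscle lineage. Myf6 (also called Mrf4) acts later in the same family, Mef2c is a MADS-box factor that works with these proteins on muscle genes and also acts in the heart, and Tcf15 (paraxis) is a helix-loop-helix factor of somites. In the frog gastrula this mesoderm lies beside the organizer, the dorsal tissue that forms notochord.

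RNA was sequenced from pooled explants of unmanipulated embryos raised at 16 °C, with no treatment other than cutting and culture. Dorsal marginal zone (DMZ) explants, called Keller explants, lengthen in culture by convergent extension. They were cut at stage 10.5, with 50 isolated and 5 or 6 taken at each of 10 stages: every 0.5 stage between 11 and 13, and each whole stage from there to 18. The ventral marginal zone (VMZ) was sampled as 5 explants cut at stage 10.5, and the animal cap, the prospective ectoderm, as 20 explants cut at stage 8, both collected at stage 11. Each of the 12 groups has 2 libraries, 24 in all. The labels number the replicates but do not say that they came from separate clutches, so a p-value here covers no more than the spread between the samples, which may be technical. A difference from the cap cannot be told apart from its earlier cutting, longer culture and larger number of explants.

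The 2 shallowest libraries were stage 11 replicate 2 (7.38 M counts) and stage 17 replicate 1 (14.6 M) of the DMZ course, and the other libraries had 21.9 to 39.8 M. Levels are CPM, counts scaled for library size, with TMM-scaled library sizes. They are not per length, so they are compared between samples for 1 model and never between models. At stage 11 the notochord markers were highest in DMZ and the epidermal markers in cap. The 9 models of the 5 notochord symbols (*chrd*, *not*, *shh*, *foxa4*, *t*) summed to 1550 and 1690 CPM in DMZ, 668 and 296 in VMZ and 33.2 and 86.5 in cap, and *shh.L* was at 0 in VMZ replicate 1. The models of this list differed: in VMZ *t.S* was the largest part (337 and 132 CPM, beside 456 and 292 in DMZ). *chrd.L* was at 1.66 and 0.563 CPM in VMZ and 289 and 483 in DMZ, so the VMZ sum is no measure of notochord. The 10 models of 5 epidermal symbols summed to 3570 and 2640 CPM in cap, 1800 and 1710 in VMZ and 932 and 478 in DMZ. The 8 models of ventral symbols did not set VMZ apart, with 864 and 445 CPM in VMZ, 1780 and 1510 in cap and 296 and 114 in DMZ. Among them *wnt8a.L*, a Wnt ligand of ventrolateral mesoderm, was at 113 and 34.9 CPM in VMZ, 0.943 and 0.676 in cap and 0.916 and 1.41 in DMZ. In such pieces of tissue, fewer cells of a type and less RNA per cell cannot be told apart.

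At stage 11 the presomitic factor *msgn1* was on average highest in VMZ, lower in DMZ and nearly missing from the cap. *msgn1.L* was at 38.2 and 5.11 CPM in the VMZ libraries, 1.15 and 3.58 in DMZ and 0 and 0.193 in cap. Both VMZ libraries thus lay above both DMZ libraries, which lay above both caps, and the VMZ libraries differed from each other far more than the DMZ libraries did. *msgn1.L* was higher in VMZ than in cap by a log2 fold change of 7.68 ± 1.37 (SE; 205-fold, 1468 against 6 counts, edgeR adjusted p = 0.00927), and this call ended without cap replicate 1 (adjusted p = 0.143) or cap replicate 2 (adjusted p = 0.0668). Its difference between DMZ and VMZ, -3.31 ± 1.05, did not pass by edgeR (adjusted p = 0.102) and did by DESeq2 (0.00932). The same held between DMZ and cap, 4.37 ± 1.38 (edgeR adjusted p = 0.12, DESeq2 adjusted p = 0.00136).

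*msgn1.S* was at 8.03 and 0.968 CPM in VMZ, 0.441 and 1.28 in DMZ and 0.218 and 0.0966 in cap. Here DMZ and VMZ overlapped, and both lay above the cap. By edgeR the difference between DMZ and VMZ did not pass (adjusted p = 0.25), nor did that between DMZ and cap (0.606). VMZ against cap, 4.82 ± 1.27 (28.2-fold), missed the threshold by edgeR (0.0982) and passed by DESeq2 (0.000431), as well as by edgeR without VMZ replicate 2 (0.0372) or either stage 11.5 library (0.0359 and 0.0354).

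Over the DMZ course *msgn1.L* was at 1.6 and 11.4 CPM at stage 11.5, 17.3 and 7.09 at stage 13, 14.3 and 15.7 at stage 16 and 16.1 and 9.51 at stage 18. The replicates of stages 11.5 and 13 lay far apart, and those of stage 16 lay close together. *msgn1.S* was at 12.7 and 8.31 CPM at stage 18, above both libraries of stage 11. *msgn1.S* was thus higher at stage 18 than at stage 11, by 3.82 ± 1.17 (adjusted p = 0.0166). The call ended without DMZ stage 11 replicate 1 (adjusted p = 0.141) or DMZ stage 18 replicate 1 (adjusted p = 0.0581), and without the 2 shallowest libraries (adjusted p = 0.0541). The difference of *msgn1.L*, 2.56 ± 1.03, did not pass (edgeR adjusted p = 0.0586; DESeq2 adjusted p = 0.0197).

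Both copies of the determination factor *myf5* were near 0 in the cap and present in DMZ from the first stage sampled. *myf5.S* was at 6.17 and 12.7 CPM in DMZ stage 11, 1.85 and 0.248 in VMZ and 0.0363 and 0 in cap, where it had 1 and 0 counts. The 3 tissues did not overlap, in the order DMZ, VMZ, cap. In the comparison of DMZ with cap, *myf5.S* had 281 against 1 counts, a ratio of 442 (95% counting interval 78.6 to 17500), and was called (edgeR log2 fold change 8.77 ± 1.35, adjusted p = 0.00115).

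*myf5.L* was at 6.71 and 13.2 CPM in DMZ stage 11, 4.21 and 0.45 in VMZ and 0.109 and 0.0322 in cap. The order of the tissues was that of *myf5.S*, again with no overlap. *myf5.L* was higher in DMZ than in cap by 7.07 ± 1.16 (134-fold, 301 against 4 counts, adjusted p = 0.00193). These were the steadiest calls of the members between tissues: both copies kept the call against the cap when each of the 24 libraries was left out in turn, with adjusted p between 0.000216 and 0.0479 for *myf5.L* and between 0.000333 and 0.0326 for *myf5.S*.

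Against VMZ, *myf5.S* was higher in DMZ by 3.18 ± 0.83 (9.06-fold, edgeR adjusted p = 0.0491), close to the threshold. The call was kept in 6 of the 24 fits with 1 library left out and lost in 18, with adjusted p up to 0.365 without VMZ replicate 2. It was also lost with RLE size factors (adjusted p = 0.0503) and without the 2 shallowest libraries (adjusted p = 0.187). *myf5.L* did not pass in the same comparison (2.09 ± 0.78, adjusted p = 0.167), except without VMZ replicate 1, where its log2 fold change was 4.42 (adjusted p = 0.0155). In VMZ against cap neither copy passed by edgeR (adjusted p = 0.0599 for *myf5.L* and 0.105 for *myf5.S*), and both passed by DESeq2 (0.000105 and 0.0121).

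The level of *myf5* was not called different between the first and last DMZ stages. Even so, both libraries of stage 18 lay above both of stage 11 for each copy. *myf5.L* was at 30.5 and 28.7 CPM at stage 18 and 6.71 and 13.2 at stage 11 (3.03-fold), and *myf5.S* differed 2.06-fold. Over the 20 DMZ libraries *myf5.S* ranged from 6.17 to 31.2 CPM, with a median of 18.5. It was at 7.55 and 18.3 CPM at stage 11.5, 31.2 and 10.5 at stage 12 and 16.7 and 11 at stage 12.5. It was then at 23.5 and 23.5 CPM at stage 13, 11.7 and 30.8 at stage 14 and 7.68 and 22.9 at stage 15. The highest library was stage 12 replicate 1 and the lowest was stage 11 replicate 1, and the replicates of stages 12, 14 and 15 lay far apart.

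In the last 3 stages *myf5.S* was at 19 and 26.3, 18.6 and 22.9, and 16.4 and 21.6 CPM. When the 12 groups were ordered by mean, stage 13 stood first, and every DMZ group overlapped its neighbours in that order. The only neighbours apart were the lowest DMZ group and VMZ, and VMZ and cap, and the same held for *myf5.L*. Stage 18 against stage 11 gave 1.04 ± 0.74 for *myf5.S* (adjusted p = 0.284) and 1.60 ± 0.75 for *myf5.L* (adjusted p = 0.101), and *myf5.L* passed without VMZ replicate 1 (0.0369) or VMZ replicate 2 (0.0319).

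MyoD transcripts were present in all 3 tissues. *myod1.S* was at 8.44 and 13.6 CPM in DMZ stage 11, 21.9 and 3.83 in VMZ and 0.471 and 1.19 in cap. The VMZ libraries enclosed the DMZ libraries, and both tissues lay above the cap. *myod1.S* was higher than in cap both in DMZ (3.68 ± 0.87, 12.8-fold, adjusted p = 0.0271) and in VMZ (3.92 ± 0.86, 15.2-fold, adjusted p = 0.0399), while DMZ and VMZ did not differ by the test (-0.24 ± 0.74, adjusted p = 0.928). The DMZ call ended without cap replicate 1 (log2 fold change 3.179), cap replicate 2 (4.508), DMZ stage 11 replicate 1 (4.005) or DMZ stage 11 replicate 2 (3.299). The VMZ call ended in 13 of 24 fits with 1 library left out. Both calls also ended without the 2 shallowest libraries, where the log2 fold change was 3.323 for DMZ and 3.922 for VMZ.

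*myod1.L* was at 3.02 and 9.47 CPM in DMZ stage 11, 2.43 and 1.15 in VMZ and 0.689 and 1.19 in cap. DMZ lay above both other tissues, and VMZ and cap overlapped. None of the 3 comparisons of *myod1.L* passed by edgeR (adjusted p = 0.218, 0.0846 and 0.832 for DMZ with VMZ, DMZ with cap and VMZ with cap), and DESeq2 called DMZ against cap (0.00404).

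Unlike *myf5*, both copies of *myod1* were called higher at the end of the DMZ course, though whether the 2 genes differ in their change was not tested. *myod1.S* was at 9.59 and 28.6 CPM at stage 11.5, 59.6 and 24.3 at stage 12 and 60.9 and 68.1 at stage 13. It was at 27.9 and 81 CPM at stage 14, 53.5 and 92.6 at stage 16 and 71.9 and 74.6 at stage 18. Both libraries of stage 18 lay above both of stage 11, by 2.76 ± 0.77 (adjusted p = 0.00995). *myod1.L* was at 29.9 and 29.8 CPM at stage 18, higher than at stage 11 by 2.32 ± 0.72 (adjusted p = 0.0168). Both calls ended without DMZ stage 11 replicate 1 (adjusted p = 0.0827 for *myod1.S* and 0.149 for *myod1.L*).

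*myod1.S* was also called at stage 14, where it was higher at stage 14 than at stage 11 by 2.33 ± 0.76 (adjusted p = 0.0346), a call that ended without either library of stage 11 (0.168 and 0.102), without stage 14 replicate 2 (0.277) or without the 2 shallowest libraries (0.12). *myod1.L* gave 1.91 (adjusted p = 0.0583), which passed with the replicate number as a block (0.0393) and by DESeq2 (0.0221). From stage 14 to 18 neither copy passed the test. The replicates of stage 14 stood as far apart as 13.4 and 31.5 CPM for *myod1.L*. In the order of group means DMZ stage 11 was the lowest DMZ group for both copies and lay apart from the group ranked after it, the VMZ for *myod1.L* and the cap for *myod1.S*, and all other neighbours overlapped except stages 18 and 13 for *myod1.L*.

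**Figure D1:**
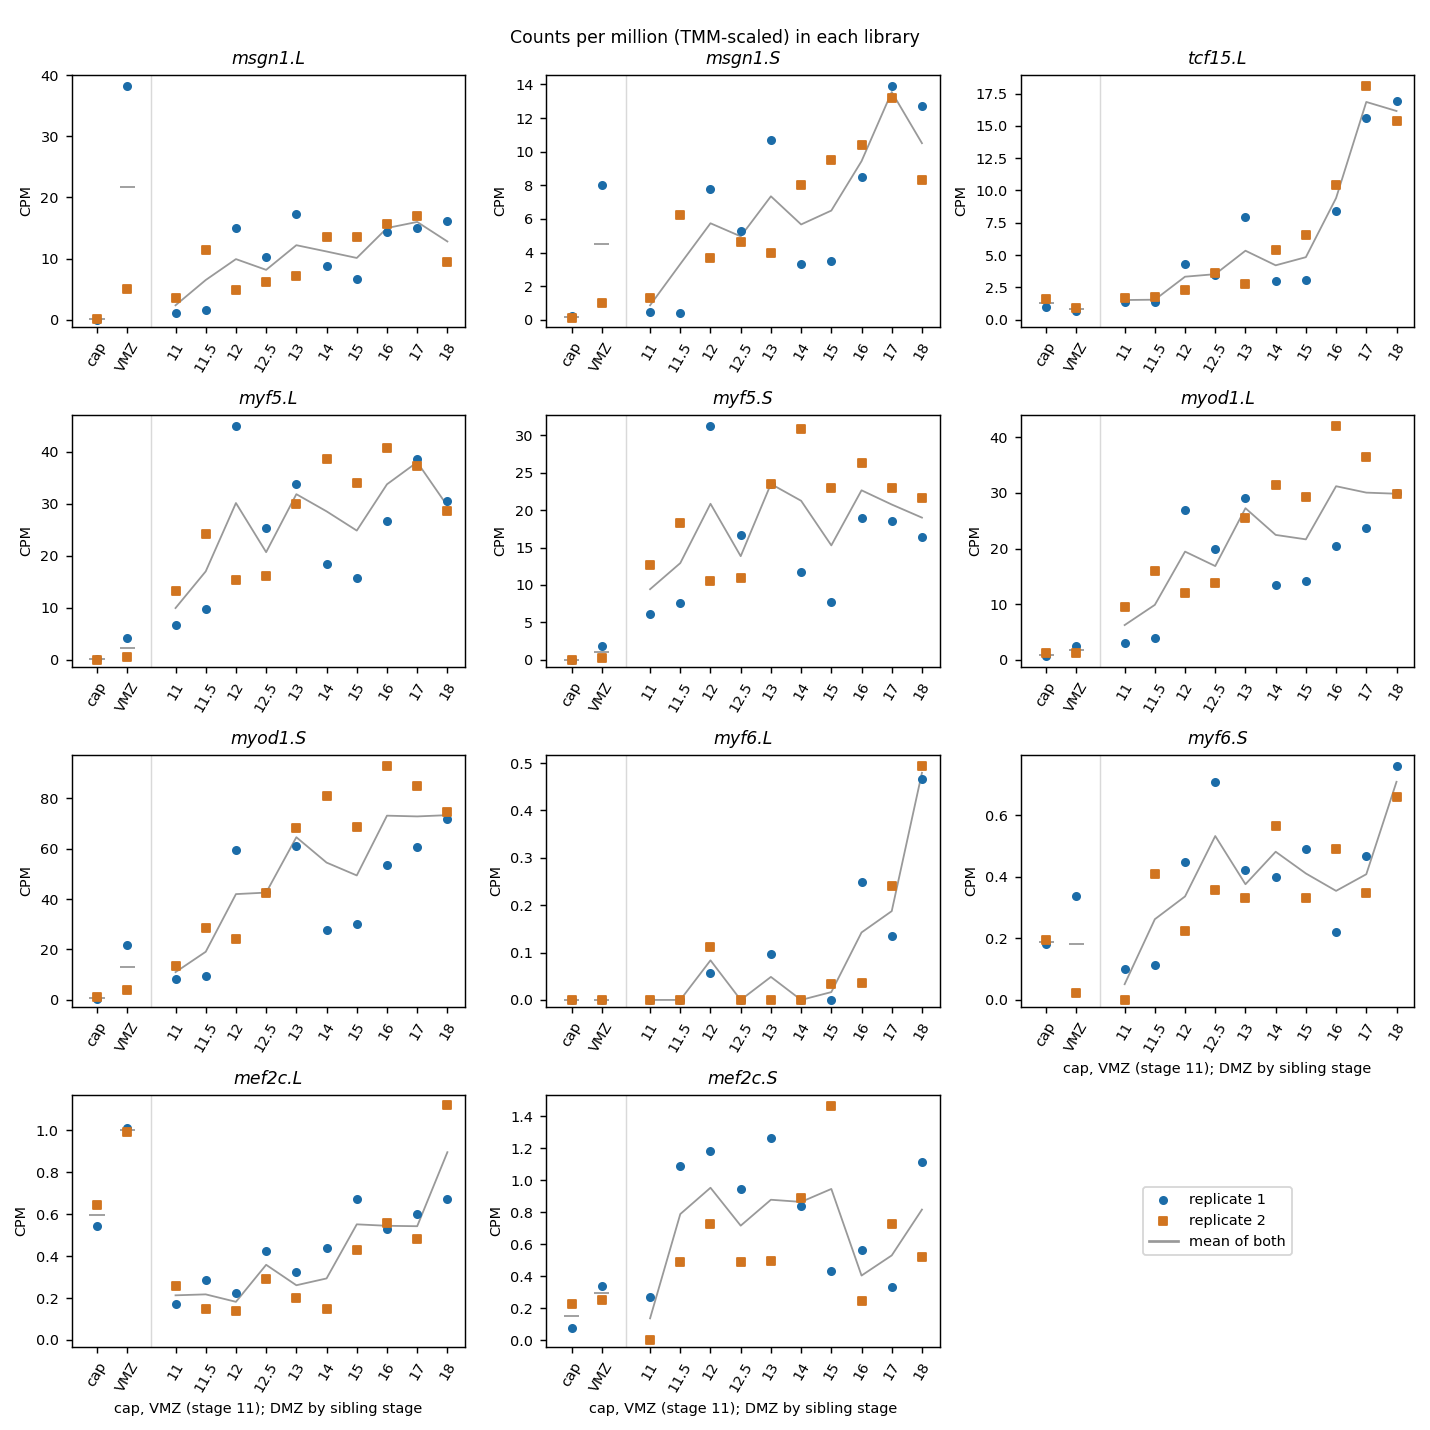
Level of each of the 11 models in CPM (vertical axis, own scale per panel) in each of the 24 libraries, by group (horizontal axis); points are libraries, lines join the means of the DMZ stages and short bars mark the means of cap and VMZ. *tcf15.L* stands at 8.43 to 18.1 CPM in the 6 libraries of stages 16 to 18. The replicates of *myf5*, *myod1* and *msgn1* lie far apart at stages 12, 14 and 15. Those of *tcf15.L* also differ there (4.35 and 2.31, 3.03 and 5.39, and 3.09 and 6.59 CPM).

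The later family member *myf6* was scarcely detected. *myf6.L* had 64 counts over the 24 libraries, 16 and 18 of them at stage 18 (0.466 and 0.493 CPM), and 0 in DMZ stage 11, in stage 14, in VMZ and in cap. Stage 18 was at least 5.97-fold higher than stage 11 and at least 9.42-fold higher than stage 14, taking a floor of 3 counts over the group at 0. The test called *myf6.L* between stages 18 and 11. Between stages 18 and 14 it missed, and it passed with the replicate number as a block. Since the model entered through stage 18 alone, the direction of these differences was fixed in advance, and the calls carry no weight. The first call also ended when any library of stages 18 and 11 was left out, and by DESeq2.

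*myf6.S* was at 0.758 and 0.658 CPM at stage 18, 0.102 and 0 at stage 11, 0.338 and 0.0225 in VMZ and 0.181 and 0.193 in cap. Stage 18 held 50 counts against 3 at stage 11, a ratio of 8.78 (95% counting interval 2.84 to 44, counting error only; edgeR adjusted p = 0.0218). The call was lost without either library of stage 11 (0.0574 and 0.0905) or without stage 18 replicate 1 (0.0621), and the model did not enter a fit with a stricter filter. The call of *myf6.S* was also lost without the 2 shallowest libraries, where its log2 fold change was 2.75. In RefSeq's annotation of Xenopus_laevis_v10.1 *myf5* and *myf6* are next to each other on both 3L and 3S, as they are in other vertebrates. The stage 12 libraries of both *myf5* copies enclosed those of stage 18. *myf6.S* had its highest group mean at stage 18, where it overlapped stage 12.5 (0.708 and 0.356 CPM). That of *myf6.L* was also at stage 18, the group through which alone it passed the filter, so it carries no weight.

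*mef2c* was also at low counts, and it was the only gene of the 6 with a model called lower in any comparison. *mef2c.L* was at 1.01 and 0.99 CPM in VMZ, 0.544 and 0.644 in cap and 0.17 and 0.256 in DMZ stage 11. The 3 tissues did not overlap, and *mef2c.L* was lower in DMZ than in VMZ by -2.32 ± 0.59 (5.01-fold, edgeR adjusted p = 0.0434). The DMZ libraries held 7 counts in all, and the call was kept in 7 of the 24 fits with 1 library left out, with adjusted p up to 0.354 without DMZ stage 11 replicate 1. Without the 2 shallowest libraries it was at 0.11.

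Within DMZ *mef2c.L* was at 0.439 and 0.148 CPM at stage 14 and 0.671 and 1.12 at stage 18. Both libraries of stage 18 lay above those of stages 11 and 14. The rise from stage 11 was 2.17 ± 0.59 (64 against 7 counts, adjusted p = 0.00828), and it lost its call without DMZ stage 11 replicate 1 (0.113) or DMZ stage 18 replicate 2 (0.0656). Stage 18 against 14 gave 1.64 ± 0.52 (adjusted p = 0.067, and 0.0231 with the replicate number as a block). The 4 models of the heart symbols found were those of *nkx2-5* and *myh6*. Their sum was 4.61 and 4.74 CPM at stage 11, 17.8 and 15.7 at stage 14 and 14.4 and 16.6 at stage 18. It thus stood at its stage 18 level by stage 14, where *mef2c.L* was still low. The models differed, with *nkx2-5.L* at 0 in stage 11 replicate 1. *myh6.L* was at 2.31 and 1.41 CPM at stage 11 and 1.4 and 1.29 at stage 18, and the other models were higher at stage 18. The part of the heart models in the level of *mef2c.L* was not tested.

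*mef2c.S* was at 0.271 and 0 CPM in DMZ stage 11, 1.11 and 0.521 in stage 18, 0.338 and 0.248 in VMZ and 0.0725 and 0.225 in cap. DMZ stage 11 enclosed the cap and overlapped VMZ, and both libraries of stage 18 lay above it. *mef2c.S* passed none of the 6 comparisons by edgeR, with 2.09 ± 0.90 from stage 11 to 18 (adjusted p = 0.0748, and 0.0452 without DMZ stage 11 replicate 1).

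The somite factor *tcf15.L* had the clearest course. At stage 11 it was at 1.39 and 1.66 CPM in DMZ, 0.677 and 0.923 in VMZ and 1.02 and 1.61 in cap. These levels lay close together, and none of the comparisons between tissues passed (edgeR adjusted p = 0.391, 0.977 and 0.757 for DMZ with VMZ, DMZ with cap and VMZ with cap).

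In DMZ *tcf15.L* was then at 1.35 and 1.75 CPM at stage 11.5, 4.35 and 2.31 at stage 12, 3.45 and 3.6 at stage 12.5 and 7.91 and 2.77 at stage 13. It was at 3.03 and 5.39 CPM at stage 14 and 3.09 and 6.59 at stage 15. The last 3 stages stood at 8.43 and 10.4, 15.6 and 18.1, and 16.9 and 15.4 CPM. All 6 libraries of stages 16 to 18 thus lay above all 14 earlier DMZ libraries, which spanned 1.35 to 7.91 CPM.

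In the order of group means the places with no overlap between neighbours were stage 18 above stage 16, stage 16 above stage 13, stage 12 above stage 11.5, and cap above VMZ. The other neighbours overlapped. *tcf15.L* rose from stage 11 to 18 by 3.42 ± 0.52 (10.7-fold, edgeR adjusted p = 0.000123). This call was kept with each of the 24 libraries left out (4.57e-05 to 0.00386) and under all 7 other settings tried.

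The rise of *tcf15.L* was called in both parts of the course. It was 1.49 ± 0.50 from stage 11 to 14 (2.81-fold, adjusted p = 0.0395) and 1.93 ± 0.47 from stage 14 to 18 (3.81-fold, adjusted p = 0.0211). Each part rested on single libraries. The first ended without stage 11 replicate 1 (0.178), stage 11 replicate 2 (0.121), stage 14 replicate 2 (0.248) or the 2 shallowest libraries (0.138), and the second ended without stage 14 replicate 1 (0.166), stage 14 replicate 2 (0.0675), stage 18 replicate 1 (0.0914) or stage 18 replicate 2 (0.0904).

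**Figure D2:**
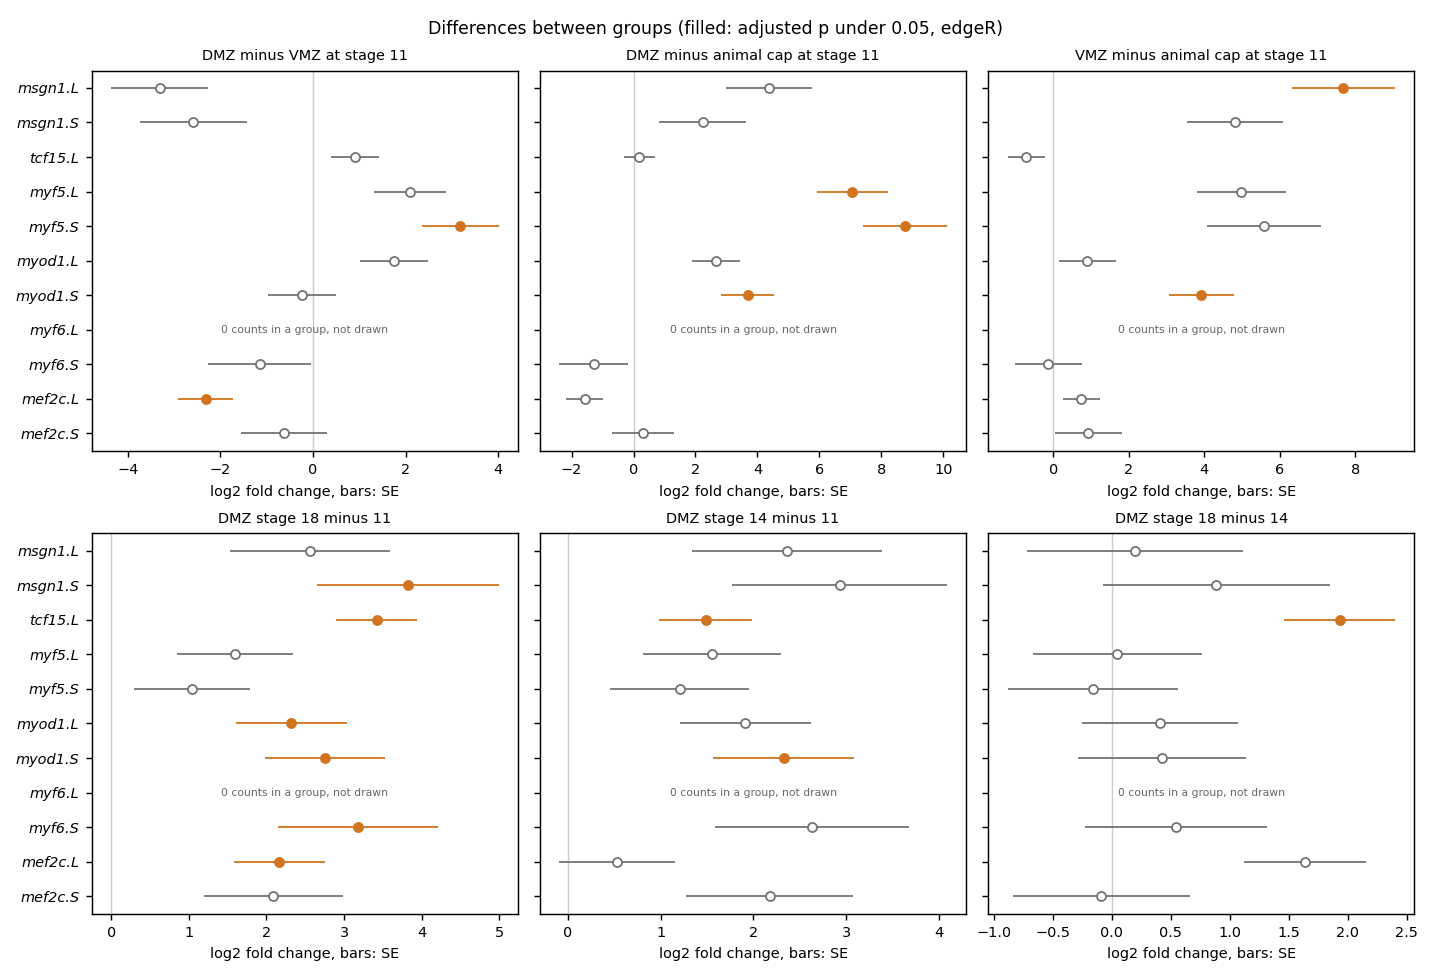
Log2 fold change (horizontal axis) of each model in the 6 comparisons, with bars of 1 SE; filled points passed the edgeR test at an adjusted p under 0.05, and *myf6.L* is not drawn since a group had 0 counts. *myf5.L* and *myf5.S* stand furthest to the right in DMZ against cap, and *tcf15.L* is the one model filled in all 3 comparisons of DMZ stages.

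Counted over the 11 models, DMZ at stage 11 had 1 higher (*myf5.S*) and 1 lower (*mef2c.L*) than VMZ, where 2.24% of all models tested were higher and 0.906% lower. Against the cap DMZ had 3 higher (*myod1.S*, *myf5.L*, *myf5.S*) and 0 lower, beside 2.49% and 0.718% of all models, and VMZ had 2 higher (*myod1.S*, *msgn1.L*) and 0 lower, beside 0.721% and 0.313%. From stage 11 to 18, 7 were higher (*myod1.L*, *myod1.S*, *myf6.L*, *myf6.S*, *msgn1.S*, *tcf15.L*, *mef2c.L*) and 0 lower, beside 20.9% higher and 19.6% lower of all models. Leaving aside *myf6.L*, which entered the test only through stage 18, 6 of the other 10 were higher. Without DMZ stage 11 replicate 1, 2 were called, *tcf15.L* and *mef2c.S* (0.0452), and without DMZ stage 18 replicate 1, 4. From stage 11 to 14, 2 were higher (*myod1.S*, *tcf15.L*) and 0 lower, beside 12.5% and 13%. From stage 14 to 18, 1 was higher (*tcf15.L*) and 0 lower, beside 3.94% and 3.67%. The comparisons with DMZ stage 11 share its libraries.

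A test of any change over the 10 DMZ stages called 3 of the 11, beside 30% of all models. They were *tcf15.L* (adjusted p = 0.000168), *mef2c.L* (0.0235) and *myf6.L* (0.0401), or 2 of 10 leaving aside *myf6.L* for its entry through stage 18. The first call was kept with each library left out (5.37e-05 to 0.000842). *mef2c.L* lost its call without stage 18 replicate 2 (0.115) or the 2 shallowest libraries (0.0582), and *myf6.L* lost its call in 12 of 24 fits. *myod1.S* did not pass by edgeR (0.133) and did by DESeq2 (0.0158). No member was called at any of the 9 steps between neighbouring stages: of 99 combinations of member and step, 0 passed by edgeR, 0 with the replicate number as a block and 0 by DESeq2, beside 0% of all models by edgeR, and 2 had an unadjusted p under 0.05. These were *mef2c.S* from stage 11 to 11.5 (edgeR log2 fold change 2.05, unadjusted p = 0.0367) and *tcf15.L* from stage 11.5 to 12 (1.11, unadjusted p = 0.0339).

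The authors' deposited table, which lists an adjusted p for 13913 gene models and does not say what was tested, gives it for 8 of the 11 models. Its adjusted p was lowest for *tcf15.L* (2.54e-30), followed by *myf5.S* (4.71e-16), and highest for *mef2c.L* (0.000127). *myf6.L*, *myf6.S* and *mef2c.S* have no adjusted p listed there, and the largest listed for any model is 0.000999685.

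Over the DMZ stages the replicates of *msgn1*, *myf5*, *myod1* and *tcf15* mostly moved apart together, while in VMZ *tcf15.L* did not follow the others. Over the 7 models of these genes, replicate 2 was higher than replicate 1 in 7 of 7 at stages 11, 11.5, 14, 15 and 16, and in 0 of 7 at stage 12. The share of all models that differed in the same direction is not given here, so these counts are a description only. Models of *myf6* and *mef2c*, at low counts, are not among the 7. The median log2 difference of replicate 2 minus replicate 1 was 1.03 at stage 11, 1.57 at stage 11.5, -1.29 at stage 12, 1.23 at stage 14 and -0.09 at stage 18. In cap the models were split, with replicate 2 higher for 4 of 7 and differences from -0.83 to 1.97. In VMZ replicate 2 was higher for 1 of 7, *tcf15.L* (0.413), with a median of -2.61 over the 7. The replicates of stage 18 were thus much closer than those of the VMZ or of stage 14.

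Over all 12 groups the differences of any pair of these 7 models correlated with r between 0.297 and 0.986 (21 pairs, median 0.841). *tcf15.L* had the lowest values, from 0.297 with *myf5.L* to 0.539 with *myod1.L*. Pairs among the other models were at 0.737 to 0.986. Over the 10 DMZ stages r of the pairs of all 7 was between 0.68 and 0.975 (median 0.826). The members left out correlated less evenly with the 7 over 12 groups. Their r was -0.312 to -0.03 for *mef2c.L*, -0.065 to 0.496 for *mef2c.S*, -0.114 to 0.343 for *myf6.L* and 0.136 to 0.759 for *myf6.S*. Each correlation rests on 12 or 10 points that share their libraries, and it is given as a description. With the summed notochord markers the differences of the 7 models correlated at r between 0.179 and 0.76 over 12 groups and between 0.115 and 0.603 over the DMZ stages. With the endodermal markers r was -0.208 to 0.662 over 12 groups and -0.444 to 0.135 over the DMZ stages. In DMZ stage 11 most of the endodermal sum was 1 model, *a2m.S*, at 883 and 802 of 887 and 833 CPM. The other endodermal models were all higher in replicate 2 there, such as *sox17a.S* at 0.576 and 11.3 CPM. The sum thus says little of them. In VMZ the notochord and endodermal sums were also lower in replicate 2, by log2 differences of -1.17 and -1.88. The largest models of these sums in VMZ were *t.S* (337 and 132 CPM) and *a2m.S* (229 and 55.3 CPM). Over 12 groups r was -0.155 to 0.296 for the neural, -0.232 to 0.045 for the epidermal, -0.555 to -0.077 for the heart and -0.068 to 0.268 for the ventral markers. Over the DMZ stages these were -0.268 to 0.324, -0.201 to 0.093, -0.581 to -0.046 and -0.282 to 0.208. What set the replicates apart was not tested.

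**Figure D3:**
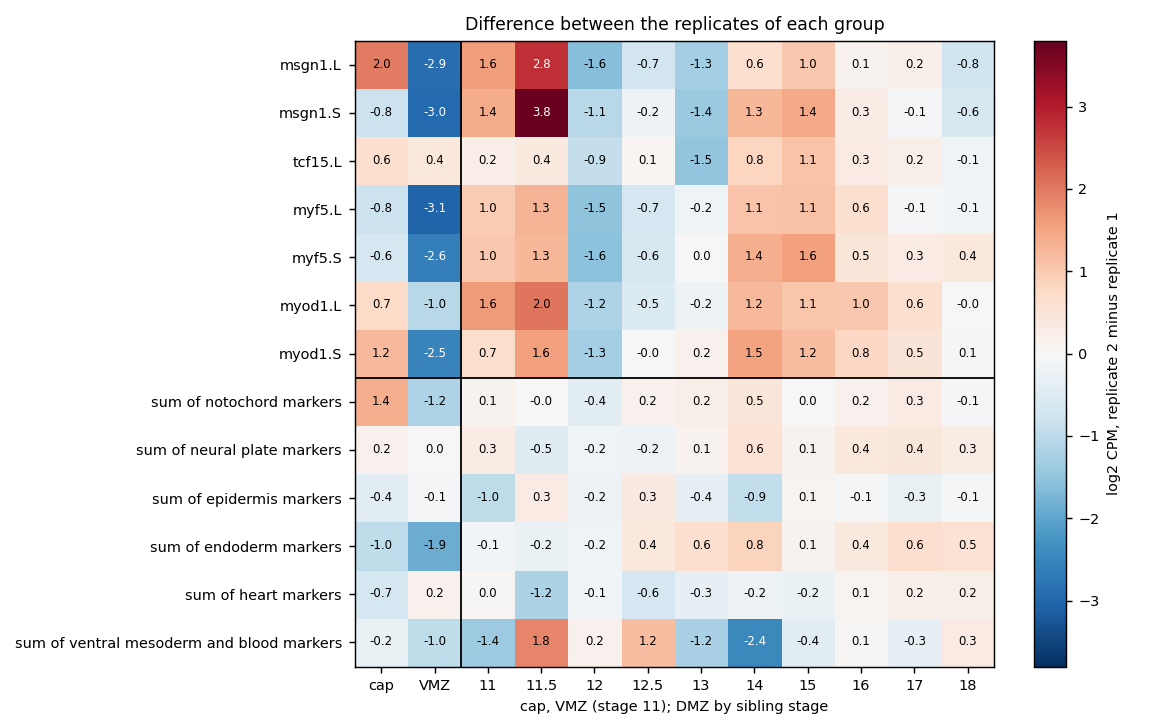
Difference of replicate 2 minus replicate 1 in log2 CPM, as colour and number, for 7 models and 6 summed marker lists (rows) in the 12 groups (columns). The 7 models are all red (higher in replicate 2) at stages 11, 11.5, 14, 15 and 16, and all blue at stage 12.

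The L and S copies were compared by the share of their summed counts on the L copy. For *myod1* this share was 10% (95% exact interval 8 to 12.3, counting error only) and 23.1% (17.7 to 29.2) in VMZ, between 24.5% and 41.1% in DMZ, and 59.4% and 50% in cap. The cap libraries lay above all others, with few counts. For *msgn1* the share was 82.6% and 84.1% in VMZ, 72.3% and 73.7% in DMZ stage 11 and 55.8% and 53.4% in DMZ stage 18, with both stage 18 libraries below both of stage 11.

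For *myf5* the L share was 52.1% and 51% in DMZ stage 11, 65% and 57% in stage 18 and 69.5% and 64.5% in VMZ. A limma test of the L to S ratio over the DMZ stages called 0 of the 5 pairs, and none had an unadjusted p under 0.05, beside 25.9% of 5024 pairs called among all genes. The replicate block and the other settings called none either. The log2 ratio differed between stages 18 and 11 by 0.56 ± 0.25 for *myf5*, -0.30 ± 0.39 for *myod1* and -1.13 ± 0.90 for *msgn1*. Differences of the ratio between tissues were not tested.

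With the L and S counts of every gene name added together before the fit, so that the division of reads between copies plays no part, *myf5* again did not pass from stage 11 to 18 (1.41, adjusted p = 0.15). *myod1* (2.67, adjusted p = 0.0112), *msgn1* (3.03, adjusted p = 0.0267) and *tcf15* (3.47, adjusted p = 0.000115) did, as did *myf6* (3.95, adjusted p = 0.0041) and *mef2c* (2.21, adjusted p = 0.00447). For *tcf15* nothing was added to *tcf15.L*, so its results here are the same counts tested again. Summed *myf6* holds the counts of *myf6.L*, which entered the main test through stage 18 alone. In DMZ against VMZ no summed gene passed, with *myf5* at an adjusted p of 0.109 and *mef2c* at 0.0885. In DMZ against cap *myod1* (0.0446) and *myf5* (0.00133) passed, and in VMZ against cap *msgn1* (0.0145) passed. For stage 14 against 11, *myod1* (0.0401), *tcf15* (0.0377) and *mef2c* (0.0396) passed, and for stage 18 against 14 *tcf15* (0.0212) did. The test of any change called *tcf15* (0.000158) and no longer *mef2c* (0.208) or *myf6* (0.143).

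**Figure D4:**
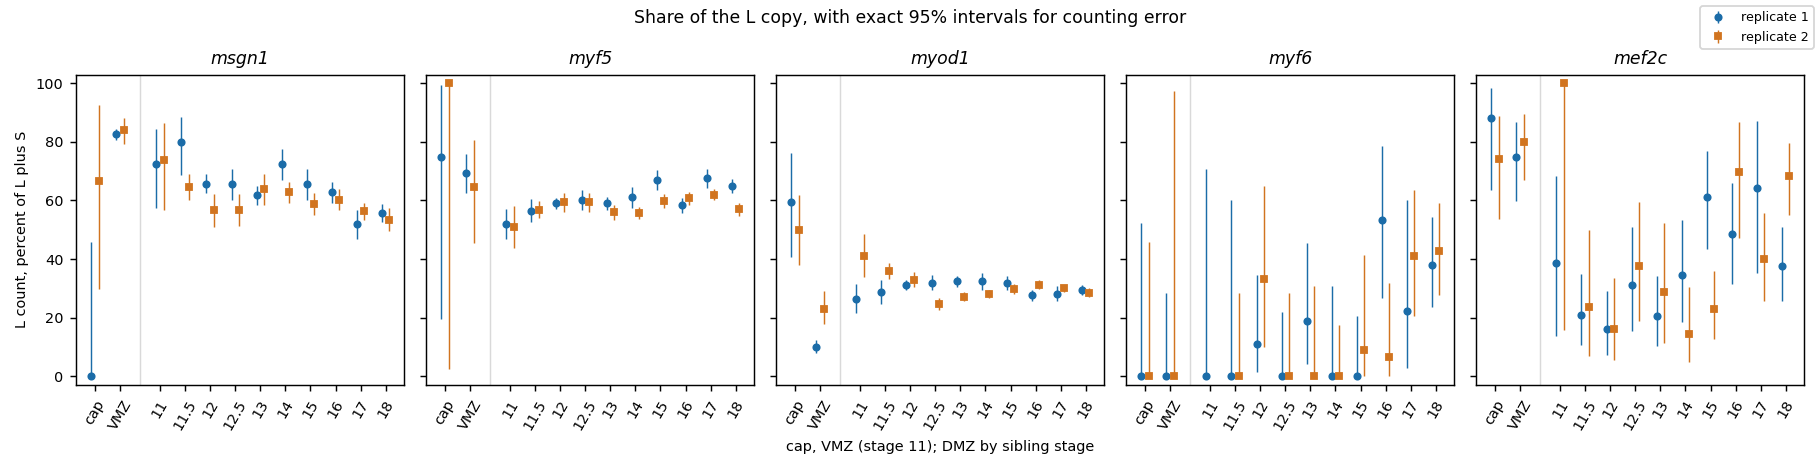
Percent of L plus S counts on the L copy (vertical axis) per library, by group (horizontal axis), with exact 95% intervals, for the 5 genes with both copies. *myod1* in VMZ replicate 1 stands at 10%, and *msgn1* in VMZ at 82.6% and 84.1%.

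The other genes of the pathway were counted over lists of symbols. These lists were chosen with earlier results of these data known, so their counts are a description. Presomitic and segmentation genes had 24 models tested. Against VMZ at stage 11, 4 were higher in DMZ and 0 lower, beside 2.24% and 0.906% of all models, while the median log2 fold change of the list was -0.15 beside -0.04 over all models. Those higher included *hes7.1.L*, a repressor of the segmentation clock in vertebrates, at 37.7 ± 5.0 against 1.65 ± 0.63 CPM (SD, n = 2; 4.50 ± 0.52, adjusted p = 0.000171), and *fgf8.L*, a growth factor of the posterior mesoderm, at 51 ± 3.3 against 21.5 ± 7.3. Against the cap 6 were higher and 0 lower in DMZ (2.49% and 0.718% of all models), and 6 higher and 1 lower in VMZ (0.721% and 0.313%). The lower one was *lfng.L*, which modifies the Notch receptor (26.8 ± 2.5 against 104 ± 5.7 CPM).

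From stage 11 to 18, 9 presomitic models rose and 3 fell, beside 20.9% and 19.6% of all models. Without the 2 shallowest libraries 4 of 25 rose and 1 fell. *tbx6.S*, a T-box factor of presomitic mesoderm, rose from 0.507 ± 0.19 to 24.4 ± 3.5 CPM (5.73 ± 0.95, adjusted p = 0.000235). Up to stage 14, 5 rose and 0 fell, beside 12.5% and 13% of all models (8 and 1 with the replicate block, 3 and 0 without the 2 shallowest libraries), and from stage 14 to 18, 0 rose and 1 fell, beside 3.94% and 3.67% (1 and 3 with the replicate block and by DESeq2). The one that fell was *cyp26a1.S*, which degrades retinoic acid, from 99.8 ± 32 to 35.8 ± 7.5 CPM (adjusted p = 0.0187). The median log2 fold change of the list was 1.05 from stage 11 to 18, beside 0.02 over all models.

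Of 19 models of somite and dermomyotome regulators, 12 rose and 0 fell from stage 11 to 18 (20.9% and 19.6% of all models), and 8 rose without the 2 shallowest libraries. The list's median was 2.52, or 2.49 with the model at 0 counts in a group set to its bound. *twist1.L*, a basic helix-loop-helix factor of mesoderm, rose from 0.456 ± 0.26 to 8.88 ± 0.19 CPM (adjusted p = 9.19e-05). Up to stage 14, 6 rose and 0 fell (12.5% and 13% of all models). From stage 14 to 18 edgeR called 0, beside 3.94% higher and 3.67% lower of all models. The list had 3 at an unadjusted p under 0.05, 2 called by DESeq2 and 3 with the replicate block. *eya1.S*, a protein phosphatase and transcriptional coactivator, was lower in DMZ stage 11 (2.16 ± 1.3 CPM) than in VMZ (17.7 ± 2.4, adjusted p = 0.00291) and cap (11.5 ± 2.5, adjusted p = 0.00919). It was the only model of the list that edgeR called between DMZ and VMZ, beside 2.24% higher and 0.906% lower of all models. DESeq2 called 1 of the list higher and 1 lower there. Against the cap DMZ had 2 higher and 1 lower (0 and 1 with the replicate block or without the 2 shallowest libraries, 5 and 1 by DESeq2), and VMZ had 1 higher, *foxc1.S*, and 0 lower (6 and 0 by DESeq2). Of all models 2.49% and 0.718% were higher and lower in DMZ than in cap, and 0.721% and 0.313% in VMZ.

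Partners that bind DNA with the myogenic factors had 9 models. In DMZ 5 were higher than in cap and 1 than in VMZ, with 0 lower in either, beside 2.49% and 2.24% of all models higher. *tcf12.L*, an E protein that pairs with MyoD family factors, was at 78.9 ± 9.7 CPM in DMZ, 38.6 ± 14 in VMZ and 21.4 ± 1.8 in cap (adjusted p = 0.0173 and 9.93e-05). VMZ had 1 model higher than cap, *tcf12.S*, beside 0.721% of all models. The counts against VMZ and of VMZ against cap were 2 each with the replicate block and by DESeq2, and the second was 0 without the 2 shallowest libraries. At stage 18, 4 models were higher than at stage 11 and 2 lower, beside 20.9% and 19.6% of all models. *mef2d.L*, a relative of Mef2c, rose from 7.24 ± 0.80 to 95.7 ± 4.4 CPM (3.74 ± 0.67, adjusted p = 0.000465). It was the 1 of 9 models that rose from stage 11 to 14, a share near the 12.5% of all models. *tcf12.L* fell to 29 ± 5.6 CPM (-1.44 ± 0.22, adjusted p = 0.000123), and *tcf12.S* fell too. From stage 14 to 18 *mef2a.S* rose and the 2 *tcf12* models fell, beside 3.94% and 3.67% of all models. With the replicate block 2 rose and 1 fell from stage 11 to 14, and 3 rose and 2 fell from stage 14 to 18.

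Inhibitors of these factors had 8 models. DMZ had 4 lower and 0 higher than cap, and 0 and 0 without the 2 shallowest libraries, beside 0.718% of all models lower. *id2.S*, which binds E proteins and keeps them from DNA, was at 33.1 ± 5.2 CPM in DMZ and 254 ± 25 in cap (-2.94 ± 0.62, adjusted p = 0.0129). From stage 11 to 18, 2 of the 8 rose, a share near the 20.9% of all models. Both are named *id4.S*, and 1 of them went from 3.53 ± 0.28 to 54.4 ± 5.0 CPM (adjusted p = 1.89e-05). That model was also the 1 of 8 that rose from stage 11 to 14, a share at the 12.5% of all models. Without the 2 shallowest libraries 1 rose from stage 11 to 18, and from stage 11 to 14 the replicate block gave 1 that rose and 1 that fell, and DESeq2 gave 2 that rose. In the remaining 3 comparisons (DMZ with VMZ, VMZ with cap, stage 18 with 14) edgeR called 0 of the 8. Of all models 2.24%, 0.721% and 3.94% were higher there, and 0.906%, 0.313% and 3.67% lower. At an unadjusted p under 0.05 the list had 3, 2 and 0, and DESeq2 called 1 lower, 1 lower and 0 of it. The replicate block gave 2 lower for DMZ with VMZ and 1 higher for stage 18 with 14.

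Muscle differentiation genes, such as actins, myosins, troponins and creatine kinase, had 26 models. From stage 11 to 18, 20 rose and 0 fell (20.9% and 19.6% of all models), with a median log2 fold change of 5.41 beside 0.02 over all models. Up to stage 14, 12 rose and 0 fell (12.5% and 13% of all models, and 7 and 0 of the list without the 2 shallowest libraries), with a median of 2.73. From stage 14 to 18, 16 rose and 0 fell (3.94% and 3.67% of all models), with a median of 2.85.

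*actc1.S*, cardiac actin, which frog embryos use in somites, was at 2.25 ± 1.2 CPM at stage 11, 76.7 ± 41 at stage 14 and 304 ± 28 at stage 18 (6.96 ± 0.64 from stage 11 to 18, adjusted p = 2.07e-06). *act3.S* had 2 counts in DMZ stage 11 and was at 0.818 ± 0.14 CPM at stage 14 and 41.1 ± 13 at stage 18 (5.64 ± 0.69 from stage 14 to 18, adjusted p = 0.000652). *ckm.L*, muscle creatine kinase, went from 4.57 ± 0.98 CPM at stage 14 to 67.7 ± 6.1 at stage 18 (3.89 ± 0.70, adjusted p = 0.00441), and *tnnt3.L*, a troponin, from 1.29 ± 0.36 to 30.6 ± 3.4 (adjusted p = 0.00228). In the comparisons between tissues edgeR called 0 of the 26, where few of all models were called. Of all models 2.24% were higher and 0.906% lower for DMZ with VMZ, and 2.49% and 0.718% for DMZ with cap. For VMZ with cap these shares were 0.721% and 0.313%. At an unadjusted p under 0.05 the list had 2 for DMZ with VMZ, 6 for DMZ with cap and 0 for VMZ with cap. DESeq2 called 1, 1 and 0 of the list higher.

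**Figure D5:**
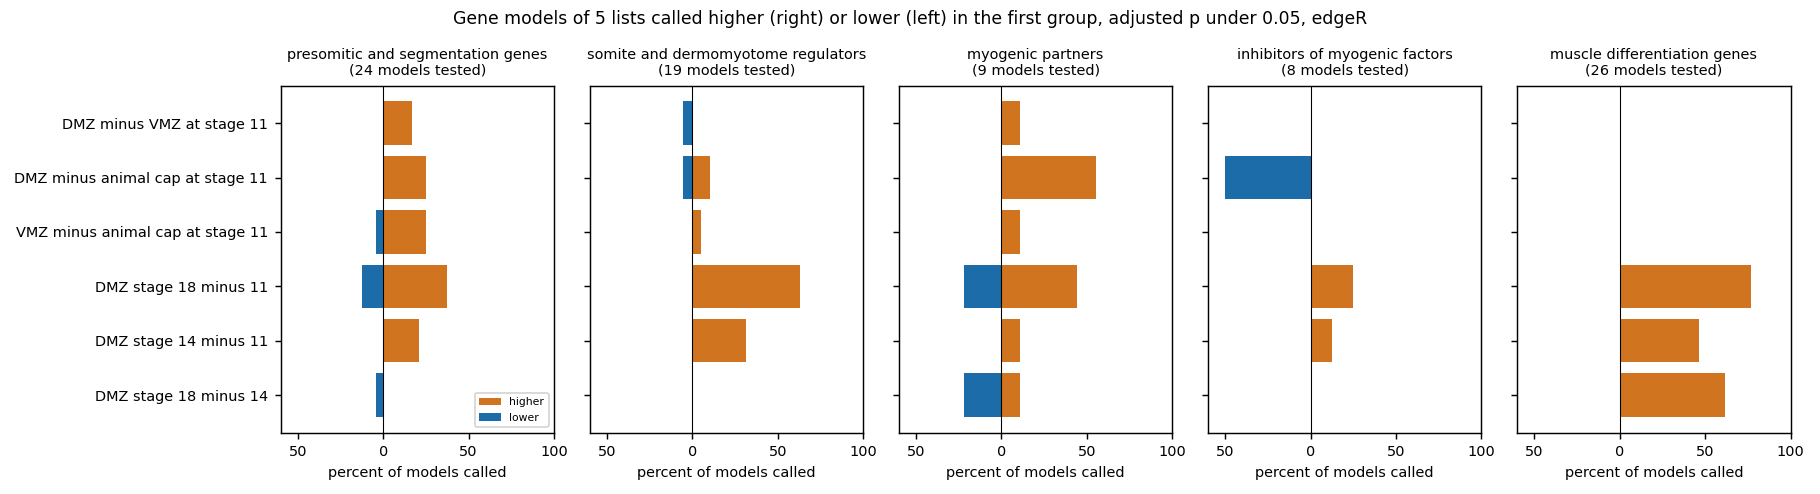
Percent of the models of 5 lists (panels) called higher (right of 0) and lower (left of 0) by edgeR in 6 comparisons (rows). Muscle differentiation genes have 20, 12 and 16 of 26 models higher in the 3 comparisons of DMZ stages, beside 20.9%, 12.5% and 3.94% of all models. They have 0 in the comparisons between tissues, where 0.313% to 2.49% of all models were called in each direction.

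The genes whose level most resembled each member over the 12 group means were found by Pearson's r of log2 CPM among 13344 models that reached 5 CPM. The points share their libraries, and the values are a description. For *tcf15.L* they were *klhl41.L* (0.989), a kelch protein of muscle, *itgb1bp2.L* (0.985), known as melusin, and *adck5.L* (0.985). For *myf5.S* they were *tril.S* (0.994), *sfrp1.L* (0.988), a secreted Wnt antagonist, and a model named *elf2.S* (0.986). *myf5.L* had *tril.S* (0.995), *dhcr7.S* (0.989) and *spry4.S* (0.989). For *myod1.S* they were *hoxb6.S* (0.988), *dhcr7.L* (0.987) and *hdac9.S* (0.986). *myod1.L* had *lama1.L* (0.992), a laminin chain, another model named *elf2.S* (0.989), and *plod2.L* (0.987). For *msgn1.S* they were *tbx6.S* (0.98), *hes9-1.L* (0.978) and *spns2.S* (0.977), and for *msgn1.L* *hes5_X1.L* (0.984), *foxc1.S* (0.983) and *dhx32.L* (0.969).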

How the data were processed

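RNA sequencing of 24 libraries was grouped by tissue and stage as labelled, 2 libraries to each of 12 groups. Values are whole-number read counts per gene model, as the authors deposited them. The submitters' processing notes name Trim Galore, kallisto and DESeq2. Versions, genome build and strand handling were not given in the sources used. Since kallisto shares out reads that match several transcripts, the split of reads between similar L and S copies is an estimate. Strand being unknown, antisense partners were not told apart. A second table of the authors' deposited values lists an adjusted p-value for an unnamed test and was used for 1 description.

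The count test was edgeR 4.0.16 in R 4.3.3 (filterByExpr with groups, minimum count 10, minimum total 15; TMM; robust quasi-likelihood fit of all 24 libraries with 1 coefficient per group, 12 residual degrees of freedom, biological coefficient of variation 0.33). With 2 libraries per group the spread comes mostly from the other groups. Tests were two-sided and adjusted by Benjamini-Hochberg over all 31349 models tested. Calls were made under an adjusted p of 0.05. The SE is the absolute log2 fold change over the square root of F, a rough guide at few counts. The ratio of L to S was tested by limma 3.58.1 after adding 0.5 to each count. Likeness used log2 CPM with a prior count of 2. Intervals are 95% exact (Clopper-Pearson) and, like the floor of 3 counts, cover counting error only. Precision is lowest in the libraries of 7.38 and 14.6 M counts. The fits were tested on simulated data.

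The members and lists were chosen with earlier results of these data known. All members are named, with the 3 models most alike to each that reached 5 CPM. Of up to 3 called models of smallest p per list and comparison, some are printed. Symbols that matched no model, such as *myog*, *meox1*, *pax1* and *id1*, were not analysed here. RefSeq's table of Xenopus_laevis_v10.1 was used for neighbours only, and no sequence was used. Same-numbered libraries deviated together: over 66 pairs of groups the correlation of their deviations was 0.237 to 0.666 (median 0.409), so the numbers were taken to pair the samples. The pairing comes from this check, not from the labels. The main tests did not use this pairing, and the replicate block did. Alternatives were RLE and upper quartile scaling, no filter, a stricter filter (1 CPM in 4 libraries), the replicate block, DESeq2 1.42.0, summed L and S counts, and leaving out each library. Leaving out the 2 shallowest libraries together, the settings tried on lists and the bounds in list medians were added after seeing the data.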

Additional observations from a re-analysis of the deposited data

How the results depend on the processing

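Counts of the 11 models called kept within 1.5 times of the main count except as follows. For DMZ with VMZ (2) they were 1 with RLE, 1 with the stricter filter and 0 without the 2 shallowest libraries. For DMZ with cap (3) DESeq2 gave 5. For VMZ with cap (2) DESeq2 gave 5 and leaving out the 2 shallowest libraries 1. For stage 18 with 11 (7) the stricter filter gave 4 and leaving out those libraries 4. For stage 14 with 11 (2) DESeq2 gave 5 and leaving them out 0. For stage 18 with 14 (1) the replicate block gave 3, among them *myf6.L*, whose entry through stage 18 leaves it without weight. For any change (3) the stricter filter and leaving out those libraries gave 1 each. Outside stage 18 with 14, the replicate block changed no call of a member except *myod1.L* from stage 11 to 14 (adjusted p = 0.0393). With 1 library left out at a time the counts ran from 0 to 2, 2 to 3, 0 to 5, 2 to 9, 0 to 4, 0 to 2 and 1 to 4 in that order, and a lone library was taken to vary like the others. For DMZ with VMZ the count was 0 without either cap library, VMZ replicate 2, either stage 11 library, stage 12.5 replicate 2, either stage 13 library, stage 15 replicate 2 or any library of stages 16 to 18, and 1 without stage 12.5 replicate 1, either stage 14 library or stage 15 replicate 1. For VMZ with cap it was 0 without either cap library, 5 without VMZ replicate 2, and 1 without VMZ replicate 1 or any library of stages 12.5, 13, 16, 17 and 18. For stage 14 with 11 it was 0 without either stage 11 library or stage 14 replicate 2, and 4 without any VMZ or stage 11.5 library. For stage 18 with 14 it was 0 without any library of those stages and 2 without VMZ replicate 1, any library of stages 11.5 and 13 or stage 16 replicate 2, and for any change 1 without stage 18 replicate 2. Steps between neighbouring stages and L to S ratios gave 0 in every fit run.

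Directions turned only in differences that were not called, and the cause was not tested. With 1 library left out at a time, the log2 fold change for DMZ with VMZ ran from -1.055 (without VMZ replicate 2) to 1.499 (without VMZ replicate 1) for *myod1.S*, which gave 0.085 without DMZ replicate 1 and 0.174 with L and S summed, and from -5.404 to 1.566 for *myf6.S*. For DMZ with cap it ran from -0.1 to 0.562 for *tcf15.L* and from -5.232 to 1.328 for *mef2c.S* (-1.004 summed), and for VMZ with cap from -2.846 to 0.824 for *myf6.S*. For stage 14 with 11 it ran from -0.382 (without stage 14 replicate 1) to 1.142 (without stage 14 replicate 2) for *mef2c.L*. For stage 18 with 14 it ran, lowest without stage 14 replicate 1 and highest without stage 14 replicate 2, from -0.071 to 1.157 for *myod1.L*, -0.14 to 1.391 for *myod1.S*, -0.384 to 0.68 for *myf5.L* (-0.022 with upper quartile scaling and -0.021 summed) and -0.691 to 0.7 for *myf5.S*. It ran there from -0.231 to 0.549 for *msgn1.L* and from -0.726 to 0.357 for *mef2c.S* (0.582 summed).

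Over all models, the replicate block called 2714, 1692, 867, 5401 and 14297 for DMZ with VMZ, DMZ with cap, VMZ with cap, stage 18 with 14 and any change, against 985, 1006, 324, 2388 and 9404. DESeq2 called 2251, 1645, 902 and 3680 in the first 4 of these. Without the 2 shallowest libraries 519, 607 and 3362 were called for DMZ with VMZ, DMZ with cap and stage 14 with 11 (main 8006). Upper quartile scaling moved the share higher among calls from 71.2% to 82.2% for DMZ with VMZ and from 69.8% to 54.9% for VMZ with cap. With 7 counts of *mef2c.L*, 3 of *myf6.S* and 0 of *myf6.L* in DMZ stage 11, depth limits their differences.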
